A study of Mus musculus with 45 samples.

Results

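The genes described are 9 enzymes of purine breakdown and urate removal, *Xdh*, *Gda*, *Uox*, *Urah*, *Urad*, *Adk*, *Ada*, *Gmpr* and *Pnp*, chosen by name from the 39179 mouse genes counted in liver RNA. Symbols matched 8 of them to a counted gene. *Pnp* was read through an older entry at its locus, ENSMUSG00000021871. An annotation later than the one counted on, GENCODE M21, gives this entry 750 exon bases, of which 718 (95.7%) lie in exons of *Pnp*. All 9 had more than 4 reads in at least 1 liver and entered the tests. The livers came from 45 female C57BL/6 mice, 5 in each of 9 groups, gavaged every 4 days for 28 days with sesame oil vehicle or with TCDD, in doses (µg/kg) of 30, 10, 3, 1, 0.3, 0.1, 0.03 and 0.01. TCDD is a dioxin that activates the aryl hydrocarbon receptor (AhR), a transcription factor. The labels call every mouse ovariectomized and also carry the word daily. The study's methods mention neither, and the schedule given here is theirs. No allele or agent other than vehicle and TCDD separates the groups. These are whole livers of 1 strain and sex at 1 time after repeated dosing, and in whole tissue fewer cells of a type and less RNA per cell cannot be told apart.

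Purines are taken apart along a branched route. Adenosine is either returned to AMP by adenosine kinase (*Adk*) or deaminated to inosine by adenosine deaminase (*Ada*), and purine nucleoside phosphorylase (*Pnp*) releases the bases hypoxanthine and guanine. Guanine deaminase (*Gda*) turns guanine into xanthine, and xanthine dehydrogenase (*Xdh*) oxidizes hypoxanthine to xanthine and xanthine to urate. GMP reductase (*Gmpr*) leads GMP back to IMP. In mice, urate is then oxidized by the liver enzyme urate oxidase (*Uox*). Hydroxyisourate hydrolase (*Urah*) and OHCU decarboxylase (*Urad*) complete the way to allantoin, which the kidney excretes. Humans lack a working *Uox*, and urate is their end product.

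*Xdh*, the gene of the enzyme that makes urate, rose from 201 ± 23.5 CPM (normalized counts scaled to a common library total) in vehicle livers to 400 ± 19.2 and 383 ± 55.2 with 10 and 30 µg/kg TCDD (mean ± SD, n = 5 mice). *Uox*, the gene of the enzyme that removes urate, fell from 3746 ± 439 to 1707 ± 360 CPM at 30 µg/kg. The last enzyme of the route, *Urad*, rose 1.63-fold while the middle one, *Urah*, fell 1.26-fold. *Gda*, which makes xanthine from guanine, fell 1.74-fold at 30 µg/kg, and *Adk*, which returns adenosine to AMP, 1.55-fold. *Ada* and the *Pnp* locus did not pass the test at any dose.

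Promoter windows of *Urad*, which rose, and of *Uox* and *Adk*, which fell, are shown because they carry, or lack, the core letters of the AhR binding motif. Each is the RefSeq window from 250 bases before to 50 after a transcription start, on the GRCm38.p6 build and the gene's own strand, with capitals marking GCGTG or its reverse complement. The *Urad* window is chr5:147322391-147322690 on the minus strand, the *Uox* window chr3:146596899-146597198 on the plus strand and the window at the second *Adk* start chr14:21075902-21076201 on the plus strand.

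*Urad*: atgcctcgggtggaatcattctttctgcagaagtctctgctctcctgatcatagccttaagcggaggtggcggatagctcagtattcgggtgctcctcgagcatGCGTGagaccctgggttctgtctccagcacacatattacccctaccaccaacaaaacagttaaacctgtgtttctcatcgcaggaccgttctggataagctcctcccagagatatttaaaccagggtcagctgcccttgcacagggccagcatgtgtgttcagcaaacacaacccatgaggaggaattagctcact

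*Uox*: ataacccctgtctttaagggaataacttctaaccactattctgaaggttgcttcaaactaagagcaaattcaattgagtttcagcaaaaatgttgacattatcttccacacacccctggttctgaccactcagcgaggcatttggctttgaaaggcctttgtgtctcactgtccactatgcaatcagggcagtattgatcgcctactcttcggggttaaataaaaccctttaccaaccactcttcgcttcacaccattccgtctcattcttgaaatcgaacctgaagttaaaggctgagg

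*Adk*, the second start: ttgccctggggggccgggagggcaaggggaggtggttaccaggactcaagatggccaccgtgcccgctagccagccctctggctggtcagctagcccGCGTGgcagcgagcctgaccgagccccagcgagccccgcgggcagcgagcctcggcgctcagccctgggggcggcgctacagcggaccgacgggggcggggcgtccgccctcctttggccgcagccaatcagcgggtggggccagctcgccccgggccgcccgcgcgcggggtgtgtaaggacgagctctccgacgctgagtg

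The *Urad* window held 1 copy of GCGTG, 146 bases before the start, and the second *Adk* window held 1, 153 bases before the start. The *Ada* window held 2, at 2 and 42 bases after the start. The windows of *Uox*, *Urah*, *Gda*, *Pnp* and *Gmpr* and the first window of *Adk* held none. Those of *Uox*, *Pnp* and *Gda* lie inside the annotated genes, which begin at chr3:146570426, chr14:50931082 and, on the minus strand, chr19:21473445. The second windows of *Urah* and *Adk* also lie inside their genes, whose annotated starts fall in the first windows. Starts without a window were not searched. GCGTG occurs on either strand in 32.4% of the 32851 mouse windows of this length, so 1 copy is common. The letters TGACNNNGC, the core of the motif of NF-E2-related factors, occur in 12.4% of windows and among the members' windows only in the second *Adk* window, without overlapping GCGTG there. These matches describe letters and do not show a bound site. No window of *Xdh* was analysed here.

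Short designed sequences place *Xdh* and *Uox* within their transcripts. They are the PCR primers that the study lists for both genes, 5′ to 3′, found in the GENCODE M21 transcripts *Xdh*-201 and *Uox*-201. The PCR values themselves were not analysed here.

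*Xdh* forward: gtcgaggagatcgagaatgc

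*Xdh* reverse: ggttgtttccacttcctcca

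*Uox* forward: acctcccgtcattcactctg

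*Uox* reverse: tagcgccacttgcagtacac

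The *Xdh* pair lies in coding exons 5 (chr17:73935880-73935899) and 7 (chr17:73926583-73926602), so it spans introns, and the *Uox* pair lies wholly in coding exon 5 (chr3:146624465-146624484 and chr3:146624595-146624614). On GRCm38, *Xdh* (ENSMUSG00000024066) occupies chr17:73883895-73950196 on the minus strand with 9175 exon bases, and *Uox* (ENSMUSG00000028186) chr3:146570426-146632305 on the plus strand with 5007. *Urah* (ENSMUSG00000025481) lies at chr7:140835018-140837966, *Urad* (ENSMUSG00000075543) at chr5:147314984-147322440, *Gda* (ENSMUSG00000058624) at chr19:21391307-21473445, *Ada* (ENSMUSG00000017697) at chr2:163726584-163750239, *Adk* (ENSMUSG00000039197) at chr14:21052574-21448569, *Gmpr* (ENSMUSG00000000253) at chr13:45507444-45553800 and the *Pnp* locus entry at chr14:50944517-50963136. Exons of *Gmpr* share 375 bases (16.1%) with *Atxn1* on the opposite strand, and those of *Urah* share 177 (12.4%) with an antisense gene that was not counted. Those of the *Pnp* locus entry share 204 (27.2%) with another opposite-strand gene that was not counted. Exons of *Gmpr2*, a paralog described below, share 1540 bases (39.2%) with *Tinf2* and 184 (4.69%) with *Nedd8*, both on the opposite strand. Whether the counting used strand is not stated, so reads in these stretches cannot be assigned with certainty.

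Reads on genes ranged from 11767284 to 56509899 per liver, with a median of 17225047. In 1 liver of the 0.01 µg/kg group, mouse 2, *Xist*, the RNA of the inactive X chromosome, was at 2.93 CPM against 1112 to 2844 CPM in the other 44 livers, and 4 Y-linked genes had 0 reads in all 45. The 6 AhR response genes checked (*Cyp1a1*, *Cyp1a2*, *Cyp1b1*, *Tiparp*, *Nqo1* and *Ahrr*) were all higher at 30 µg/kg, with *Cyp1a1*, a xenobiotic-metabolizing P450, going from 7.50 ± 6.32 to 7627 ± 1186 CPM. Within the 30 µg/kg group, mouse 4 stood apart. Its macrophage and leukocyte markers summed to 163 CPM against 296 to 464 in the other 4 mice, and its AhR response genes to 29657 against 23120 to 29960. The members that passed at 30 µg/kg are given with and without it. The listed genes that passed remained so without it, and 5 more did, all higher (*Atic*, *Impdh2*, *Ampd3*, *Samhd1* and the macrophage marker *Adgre1*).

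Per kilobase of exon, the members spanned a wide range of levels in vehicle livers. *Uox* was at 748 CPM per kb, the 68th highest of 17270 genes, followed by *Urah* at 129, *Adk* at 102, *Urad* at 43.2, *Xdh* at 21.9 and *Gda* at 10.9. The length takes in every annotated exon of a gene, so this order depends on the annotation. Before division by length, *Adk* (872 CPM) stood above *Urah* (184 CPM) in vehicle livers. *Ada* (0.519) and *Gmpr* (0.144) were low, with 9 to 27 reads and 3 to 7 reads per vehicle liver. The *Pnp* locus entry is given no level per length, because in GENCODE M21 it covers only part of the gene. Its extent in the annotation counted on was not examined.

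**Figure D1:**
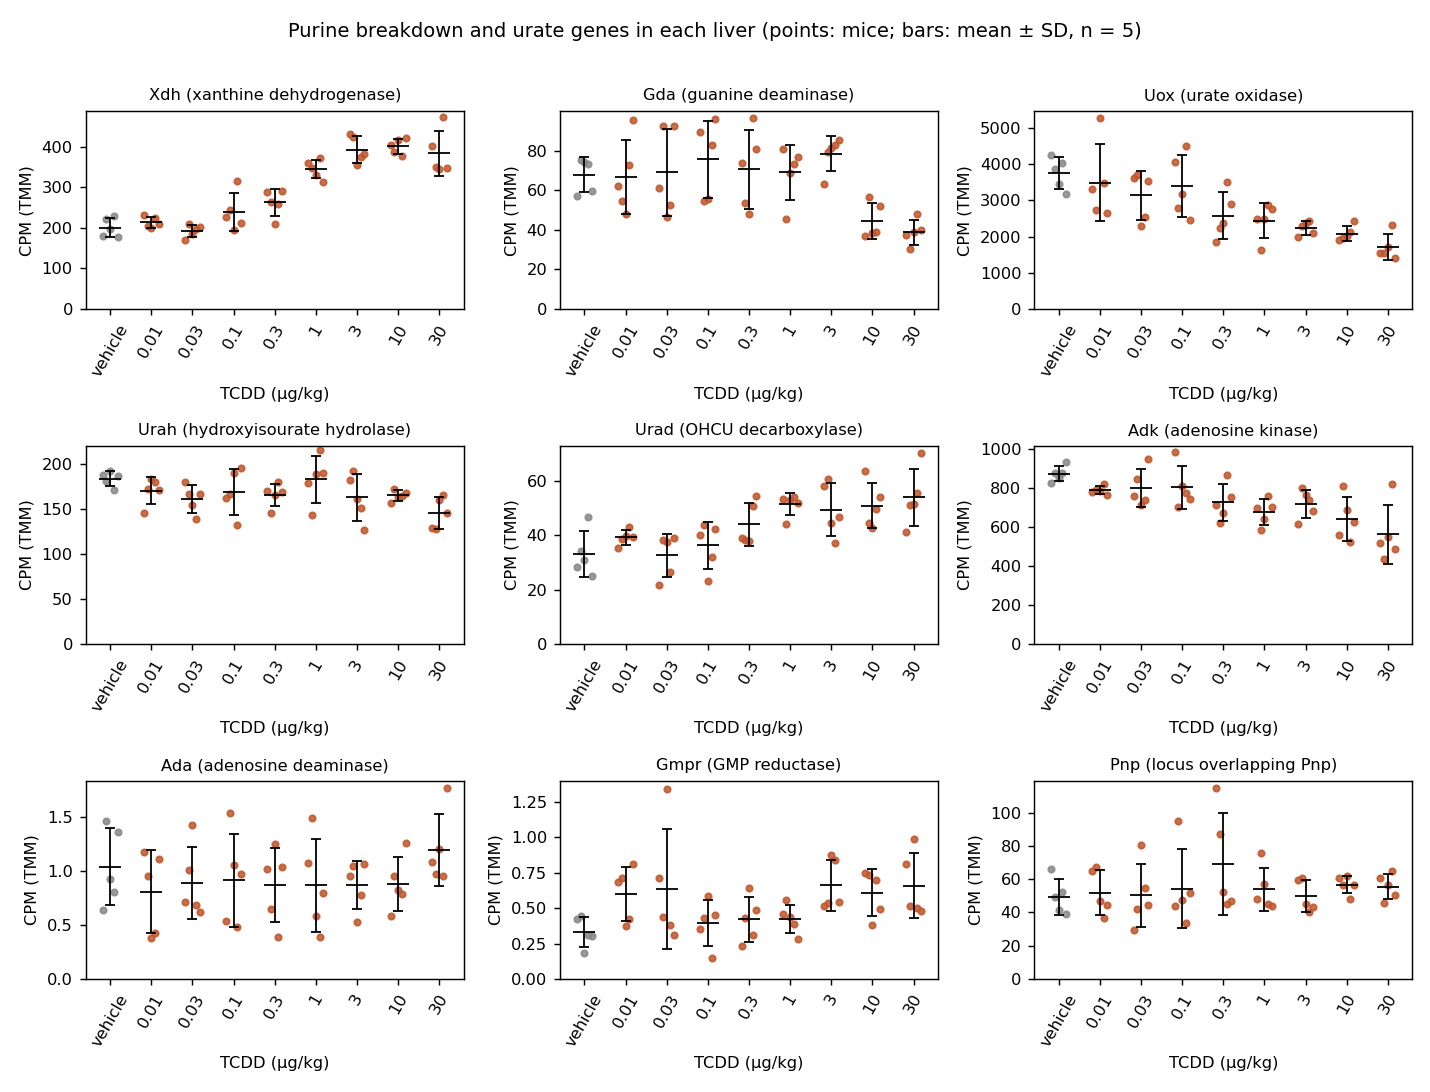
Normalized level (CPM, linear axis from 0) of each of the 9 genes against TCDD dose in µg/kg, with 1 point per mouse (grey for vehicle) and bars for the mean ± SD of 5 mice. *Xdh* levelled off near 400 CPM from 3 µg/kg, *Uox* declined to 1707 CPM, and *Gda* stayed between 66.7 and 78.4 CPM on average up to 3 µg/kg and was 44.6 with 10 µg/kg.

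A gene passed the test at a dose when its adjusted p against vehicle was under 0.05 in edgeR's quasi-likelihood test over all 17464 genes tested. None of the 9 members passed at 0.01, 0.03, 0.1 or 0.3 µg/kg. Over all genes, 0%, 0.0573%, 0.0229% and 0.464% passed at these doses, in the same order. At an unadjusted p under 0.05, 1 member of 9 was counted at each of 0.01, 0.03 and 0.1 µg/kg, where 10.1%, 11.7% and 5.15% of all genes were, and 4 at 0.3 µg/kg, where 10.5% were. At 0.3 µg/kg DESeq2 called 1 member, *Xdh*, and edgeR called it as well once 0.3 µg/kg mouse 3 was left out. At 0.01 µg/kg, where no gene passed, 1760 genes had an unadjusted p under 0.05, and DESeq2 called 34 genes and no member. Leaving out the liver low in *Xist* gave 3 genes and no member.

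At 1 µg/kg, 2 members passed, *Xdh* and *Urad*, both higher, against 1.76% of all genes. At 3 µg/kg, 3 passed, with *Uox* lower, against 7.54%. At 10 µg/kg, 5 passed, with *Gda* and *Adk* also lower, against 15.9%. At 30 µg/kg, 7 of 9 passed against 29.6% of all genes. Of these, 3 were higher (*Xdh*, *Urad*, *Gmpr*), against 15.5% of all genes, and 4 lower (*Uox*, *Urah*, *Gda*, *Adk*), against 14.1%. With a change of at least 2-fold added, 2 remained, *Uox* and *Gmpr*, against 11.4%, and *Xdh* was just short of it at 1.91-fold. A joint test of all doses was passed by 5 members (*Uox*, *Urad*, *Xdh*, *Gda*, *Adk*) and by 28.8% of genes. All dose comparisons share the same 5 vehicle mice, so the counts at neighbouring doses are not independent.

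**Figure D2:**
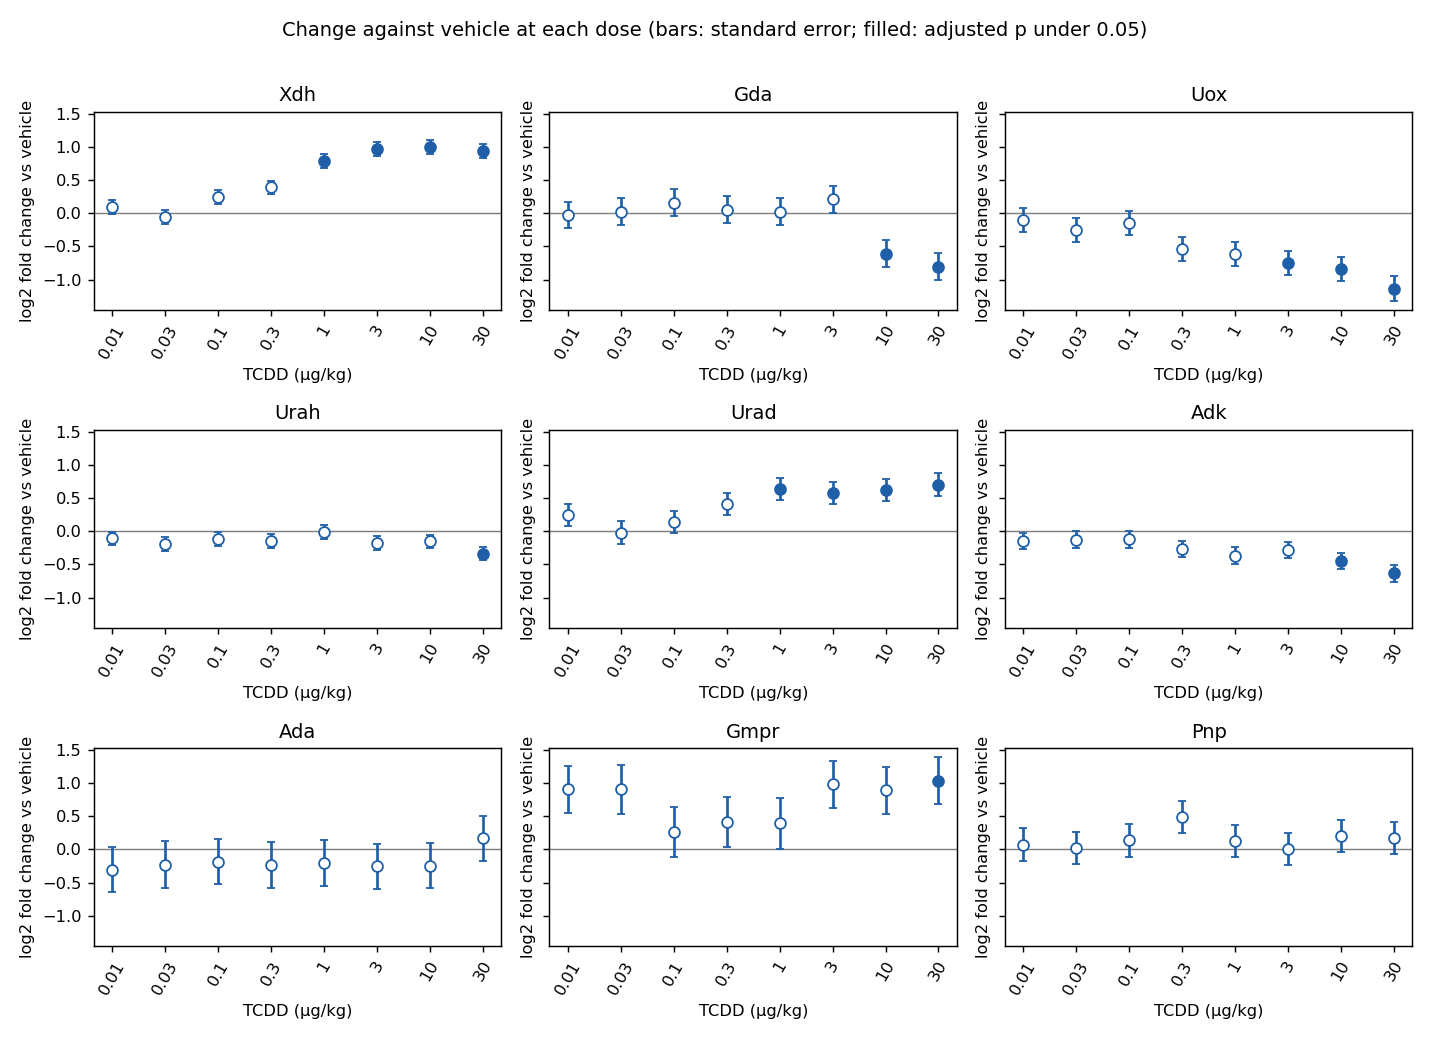
Log2 fold change against vehicle (y axis) at each dose in µg/kg (x axis) for the 9 genes, with standard errors and filled points where the adjusted p was under 0.05. *Xdh* and *Urad* have filled points from 1 µg/kg, *Uox* from 3 µg/kg, *Gda* and *Adk* from 10 µg/kg, and *Urah* and *Gmpr* only at 30 µg/kg.

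*Xdh* separated the treated from the vehicle livers from 1 µg/kg upward. Its 5 vehicle livers had 179, 221, 197, 228 and 178 CPM, the 1 µg/kg livers 359, 347, 331, 372 and 314 CPM, and the 30 µg/kg livers 402, 349, 345, 472 and 348 CPM. Every liver from 1 µg/kg upward was above every vehicle liver, while at 0.3 µg/kg 1 of 5 livers (210 CPM) fell within the vehicle range. The log2 fold change was 0.39 ± 0.10 (SE) with 0.3 µg/kg (adjusted p = 0.08287) and 0.78 ± 0.10 with 1 µg/kg (adjusted p = 1.739e-06). It was 0.97, 1.00 and 0.93, each ± 0.10, with 3, 10 and 30 µg/kg, where the adjusted p was 5.137e-09, 1.043e-09 and 2.118e-09. Between neighbouring doses *Xdh* did not pass at 3 against 1, 10 against 3 or 30 against 10 µg/kg, with log2 differences of 0.19, 0.03 and -0.06, each with an SE of 0.10. Mouse 4 had the highest level at 30 µg/kg, and without it the log2 fold change was 0.83.

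*Uox* was far more abundant and more variable. Its vehicle livers had 4242, 3854, 3442, 4031 and 3163 CPM, and its 30 µg/kg livers 1549, 1536, 1721, 2320 and 1409 CPM. These groups did not overlap. The livers with 1 µg/kg (1620 to 2864 CPM), 3 µg/kg (1991 to 2433 CPM) and 10 µg/kg (1899 to 2430 CPM) were also all below every vehicle liver. Those with 0.3 µg/kg (1839 to 3512 CPM) overlapped with vehicle. At 0.01 µg/kg the 5 livers ran from 2639 to 5260 CPM, wider than the vehicle range on both sides. The log2 fold change, with an SE of 0.18 throughout, was -0.62 at 1 µg/kg (adjusted p = 0.06477), where DESeq2, edgeR with its own filter and a fit of the compared groups alone each called *Uox*. With 3, 10 and 30 µg/kg it was -0.74, -0.85 and -1.13, where the adjusted p was 0.00666, 0.0007517 and 4.742e-06. Mouse 4 had the highest *Uox* of its group, and without it the log2 fold change at 30 µg/kg was -1.28.

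Within each liver, the *Uox* level per kb was divided by the *Xdh* level per kb. This sets RNA of the enzyme that removes urate against RNA of the one that makes it, and no scaling between libraries changes the ratio. This ratio was 34.5 ± 5.01 in vehicle livers (31.9 to 43.4), and the means for 0.01, 0.03 and 0.1 µg/kg were 30.1 ± 10.4, 30.0 ± 6.84 and 26.2 ± 5.27. Those for 0.3, 1, 3 and 10 µg/kg were 18.2 ± 4.97, 13.0 ± 2.77, 10.5 ± 1.58 and 9.54 ± 0.859. With 30 µg/kg it was 8.14 ± 0.927 (7.06 to 9.14, n = 5 in each group). It was not tested apart from its members. At both 0.01 and 0.1 µg/kg, 4 of 5 livers lay below the lowest vehicle value, and 1 lay above it. The 0.03 µg/kg livers lay on both sides of that value, with a median ratio of 32.2. From 0.3 µg/kg upward no liver reached the lowest vehicle value. Mouse 4 of the 30 µg/kg group, which was high in both genes, lay within the range of its group on the ratio. The size of the ratio depends on the annotated exon lengths. Without division by length, its mean was 18.8 ± 2.74 in vehicle livers and 4.44 ± 0.506 with 30 µg/kg.

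**Figure D3:**
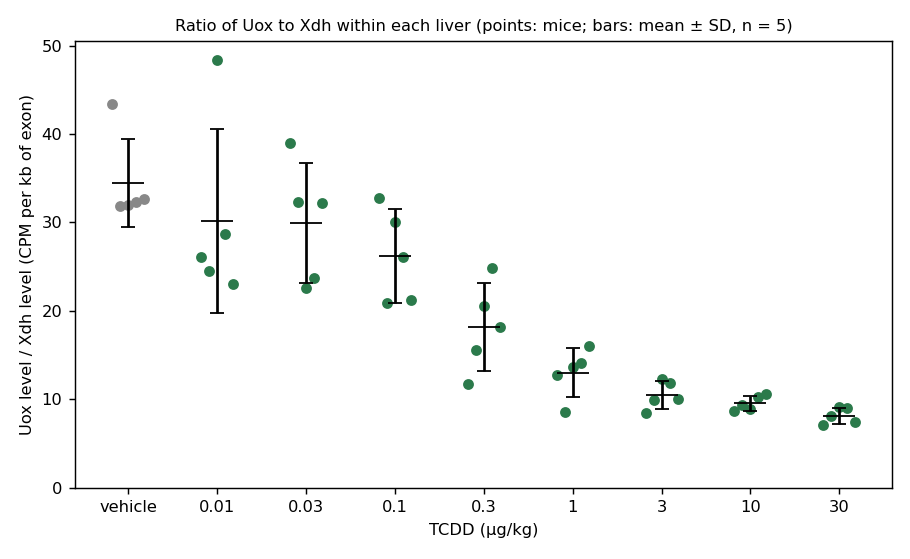
Ratio of the *Uox* level to the *Xdh* level, both in CPM per kb of exon (y axis, linear from 0), in each liver at each TCDD dose in µg/kg, with 1 point per mouse and bars for the mean ± SD of 5 mice. The mean went from 34.5 in vehicle to 8.14 at 30 µg/kg.

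Of the other enzymes of urate breakdown, *Urad* rose and *Urah* fell. *Urad* had 28.4, 34.3, 31.1, 46.9 and 24.9 CPM in vehicle livers and 41.1, 51.3, 51.5, 55.5 and 70.5 CPM at 30 µg/kg. The ranges overlapped, because vehicle mouse 4 (46.9) exceeded the lowest liver at 30 µg/kg. Its log2 fold change, with an SE of 0.17 throughout, was 0.63, 0.58, 0.62 and 0.70 with 1, 3, 10 and 30 µg/kg, where the adjusted p was 0.03707, 0.02723, 0.008237 and 0.001384. At 1 µg/kg the call held in 2 of 10 fits with a mouse left out, those without vehicle mouse 4 or 1 µg/kg mouse 2, leaving 1 member (*Xdh*) in the others. At 3 µg/kg it was lost without vehicle mouse 1, 3 or 5 or without 3 µg/kg mouse 1 or 2, leaving 2 members.

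*Urah* was the least changed of the genes that passed. It had 188, 181, 193, 171 and 187 CPM in vehicle livers and 129, 128, 160, 166 and 146 CPM at 30 µg/kg, with every treated liver below every vehicle liver. The log2 fold change was -0.34 ± 0.10 at 30 µg/kg (adjusted p = 0.01219), or -0.40 without mouse 4, and at the 7 lower doses it lay between -0.19 and -0.005 without passing. Without normalization between libraries the value was -0.13 and the call was lost (adjusted p = 0.325).

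*Gda* changed between 3 and 10 µg/kg. It had 57.2, 75.1, 74.5, 73.1 and 59.6 CPM in vehicle livers and 63.1, 79.5, 81.4, 82.6 and 85.5 CPM at 3 µg/kg. With 10 µg/kg it had 36.8, 56.6, 38.4, 39 and 52.0 CPM. With 30 µg/kg it had 37.4, 30.3, 39.1, 48 and 39.7 CPM, and the livers of both groups were all below every vehicle liver. In the direct comparison of 10 with 3 µg/kg it was the 1 member that passed, with a log2 difference of -0.82 ± 0.20 (adjusted p = 0.02972), against 0.784% of all genes. That call was lost without any 1 of mice 2, 3, 4 and 5 at 3 µg/kg or mice 1, 3 and 4 at 10 µg/kg. Against vehicle its log2 fold change was -0.61 ± 0.20 with 10 µg/kg (adjusted p = 0.03122), a call lost without vehicle mouse 2, 3 or 4 or 10 µg/kg mouse 1, 3 or 4, and -0.80 ± 0.20 at 30 µg/kg (adjusted p = 0.001996, and -0.90 without mouse 4), kept in each of the 10 fits with a mouse left out. No member passed at 3 against 1 µg/kg, where 0.178% of genes did, or at 30 against 10 µg/kg, where 0.613% did. No member had an unadjusted p under 0.05 in either, against 7.11% and 7.56% of all genes, and without mouse 4 the 30 against 10 µg/kg count was 278 genes in place of 107, again with no member.

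*Adk*, which rescues adenosine to AMP, had 824, 877, 851, 877 and 932 CPM in vehicle livers and 519, 434, 547, 820 and 488 CPM at 30 µg/kg. Mouse 4 alone, at 820 CPM, came close to the vehicle range, and the other 4 were at or below 547 CPM. The log2 fold change was -0.45 ± 0.12 with 10 µg/kg (adjusted p = 0.00947) and -0.64 ± 0.12 with 30 µg/kg (adjusted p = 9.928e-05), and -0.83 for the latter without mouse 4. All 7 calls at 30 µg/kg remained without that mouse, with *Urad* at 0.68 and *Gmpr* at 1.11 (log2).

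*Gmpr*, which was near the detection limit, had 0.425, 0.445, 0.185, 0.309 and 0.303 CPM in vehicle livers and 0.811, 0.515, 0.990, 0.501 and 0.481 CPM at 30 µg/kg, from 6 to 28 reads. The ranges did not overlap, but the levels had no order with dose. The mean was already 0.602 ± 0.193 CPM with 0.01 µg/kg and lower, 0.394 ± 0.162 CPM, with 0.1 µg/kg. The log2 fold change at 30 µg/kg was 1.03 ± 0.36 (adjusted p = 0.02441), and the call was lost without vehicle mouse 3 or 5 or without 30 µg/kg mouse 1 or 3, with values between 0.80 and 1.00 and adjusted p between 0.05276 and 0.1163, leaving 6 members. Its paralog *Gmpr2*, which encodes the other GMP reductase, was at 4.03 CPM per kb in vehicle livers against 0.144 for *Gmpr*, and did not pass at 30 µg/kg (log2 fold change -0.02 ± 0.09, adjusted p = 0.8779). Both genes share exon bases with opposite-strand genes, so part of these reads cannot be assigned with certainty.

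*Ada* and the *Pnp* locus remain. *Ada* was between 0.805 and 1.19 CPM on average in every group, and its log2 fold change with 30 µg/kg was 0.17 ± 0.34 (adjusted p = 0.7539), a width that leaves room for changes in either direction at this depth. The *Pnp* locus had 66.4, 49.1, 41.5, 52.1 and 38.9 CPM in vehicle livers and 60.7, 45.7, 56.3, 65.0 and 50.5 CPM with 30 µg/kg. The log2 fold change was 0.17 ± 0.24 (adjusted p = 0.649). Its widest spread was at 0.3 µg/kg, from 45 to 115 CPM. *Pnp2*, its neighbouring paralog, with which the entry shares 32 exon bases (4.27%) in GENCODE M21, had 2 to 9 reads per vehicle liver and a log2 fold change of 0.44 ± 0.46 (adjusted p = 0.5145).

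The doses at which the responses stood midway were estimated by a curve fitted to log2 CPM in the 45 livers, for the 5 members that passed at 2 or more doses. The midpoint was 0.380 µg/kg for *Xdh* (95% interval 0.243 to 0.594) and 0.255 µg/kg for *Urad* (0.104 to 1.08). For *Gda* it was 7.52 µg/kg (4.35 to 13.7), and with the Hill coefficient held at 1 it was 26.1 µg/kg (from 5.58 to 100, the edge of the range tried). The slopes of *Uox* and *Adk* stood at the lowest Hill coefficient tried (0.5) and that of *Gda* at the highest (4), so their midpoints depend in part on the limits of the fit. *Uox* had a midpoint of 1.19 µg/kg whose interval ran from 0.127 to above 30 µg/kg, and that of *Adk*, at 10.7 µg/kg, ran from 0.163 to the edge of the range tried. The interval of *Gda* overlapped neither that of *Xdh* nor that of *Urad*, and the latter 2 overlapped each other. Those of *Uox* and *Adk* did not separate them from any other member.

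**Figure D4:**
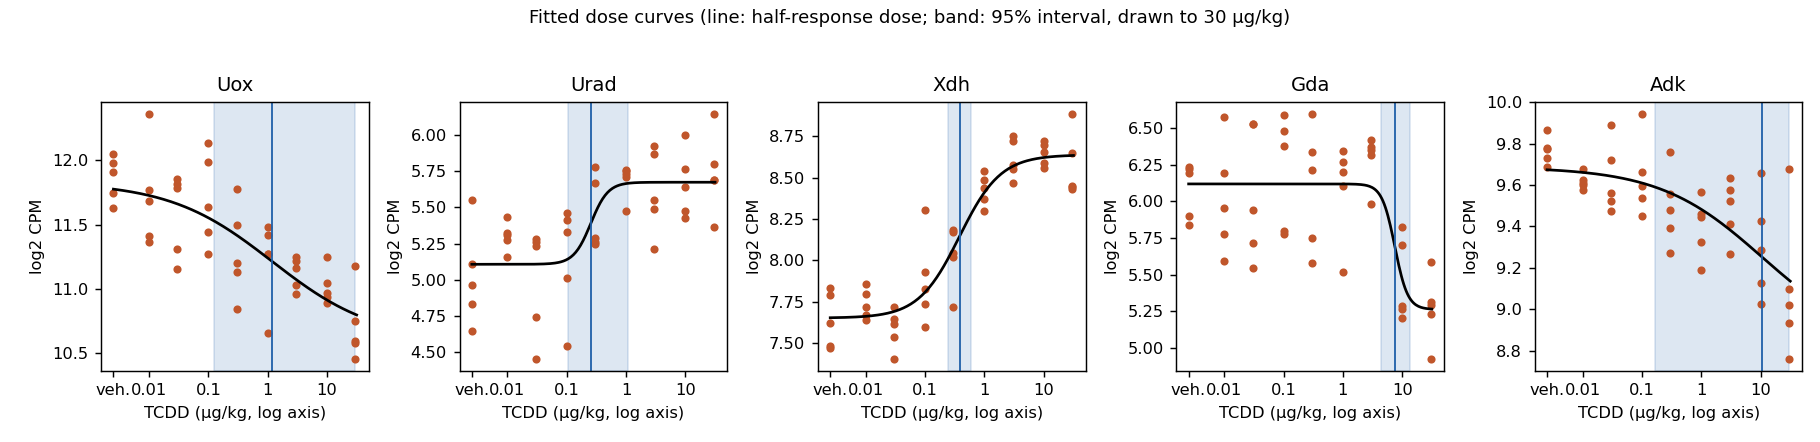
Log2 CPM in each of the 45 livers (points) against TCDD dose in µg/kg on a log axis, with vehicle at the left edge, and the fitted curve, its midpoint dose (vertical line) and the 95% interval of that dose (band, drawn to 30 µg/kg) for the 5 members that passed at 2 or more doses. The midpoints are 0.380 µg/kg for *Xdh*, 0.255 for *Urad*, 1.19 for *Uox*, 7.52 for *Gda* and 10.7 for *Adk*.

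The genes around this route moved in both directions at 30 µg/kg. Over all genes tested, 29.6% passed at this dose, 15.5% higher and 14.1% lower. These shares are the background for the counts of every list that follows. The median log2 fold change over all genes tested was 0.02, and that of the 9 members was 0.17, with values from -1.13 to 1.03. Of 10 genes of de novo purine synthesis, 4 fell (*Paics*, *Prps1*, *Prps2*, *Pfas*), none rose, and 6 did not pass, with a median of -0.27. *Paics*, which carries 2 steps of the ring assembly, fell from 248 ± 24.3 to 118 ± 24.1 CPM (log2 fold change -1.07 ± 0.10, adjusted p = 2.325e-11) and passed from 1 µg/kg upward.

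Of 13 tested genes that interconvert IMP, AMP and GMP, 2 rose, 3 fell (*Adss1*, *Adss2*, *Ak3*) and 8 did not pass, with a median of -0.02. *Impdh1*, an IMP dehydrogenase that leads toward GMP, rose from 1.25 ± 0.310 to 2.93 ± 1.09 CPM (log2 fold change 1.22 ± 0.26, adjusted p = 0.0003216), and *Ak1*, an adenylate kinase with 0 to 3 reads per vehicle liver, rose from 0.113 ± 0.0760 to 0.408 ± 0.180 CPM. Of 7 other salvage genes, 2 rose and none fell, against 15.5% and 14.1% of all genes, with a median of 0.29. These were *Aprt* (log2 fold change 0.85), which salvages adenine, and *Hprt* (0.29), which salvages hypoxanthine and guanine.

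Of 16 tested nucleotidases and nucleotide phosphohydrolases, 5 rose, 4 fell and 7 did not pass, with a median of 0.16. *Entpd2*, an ectonucleotidase that acts mostly on ATP, rose from 1.21 ± 0.134 to 20.5 ± 3.18 CPM (log2 fold change 4.07 ± 0.23, adjusted p = 9.962e-18). *Entpd1*, which takes ATP and ADP to AMP, rose from 3.39 ± 0.370 to 8.16 ± 2.74 CPM, and *Enpp3*, an ectonucleotide pyrophosphatase, fell from 32.4 ± 6.07 to 8.51 ± 1.96 CPM (log2 fold change -1.94 ± 0.21, adjusted p = 1.774e-09).

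Xanthine dehydrogenase needs a molybdenum cofactor, and of 10 tested genes for that cofactor or related enzymes, 2 rose, 4 fell (*Suox*, *Mtarc1*, *Mtarc2*, *Gphn*) and 4 did not pass, with a median of -0.04. The genes that rose were the aldehyde oxidases *Aox3*, from 309 ± 52.6 to 675 ± 65.4 CPM (log2 fold change 1.13 ± 0.17, adjusted p = 1.825e-06), and *Aox1* (0.84), the closest relatives of *Xdh*. *Aox3* passed from 1 µg/kg upward, as *Xdh* did.

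Of 14 tested transporters of urate and nucleosides, 4 rose, 6 fell (*Slc17a3*, *Slc29a2*, *Slc29a1*, *Slc17a1*, *Slc2a9*, *Pdzk1*) and 4 did not pass. *Slc2a9*, a urate carrier that brings urate into the liver, had a log2 fold change of -0.46 (adjusted p = 0.01349) and was chosen here after its value was seen. The concentrative nucleoside transporters *Slc28a1* and *Slc28a2* rose from 0.112 ± 0.0547 to 4.26 ± 1.64 CPM and from 0.322 ± 0.119 to 1.24 ± 0.543 CPM, from 1 to 3 and 3 to 7 reads per vehicle liver. *Slc22a7*, an organic anion transporter, rose from 17.0 ± 2.15 to 51.8 ± 4.99 CPM. *Slc22a12*, the urate exchanger of the kidney, had 0 reads in all 5 vehicle livers and 1 to 7 reads at 30 µg/kg, at least 4.58-fold higher against a floor of 3 reads over the vehicle group. The median of the list was -0.19, and -0.36 over the 13 genes left when *Slc22a12* stood at its bound and *Slc22a6*, near 0 in both groups, was left out.

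**Figure D5:**
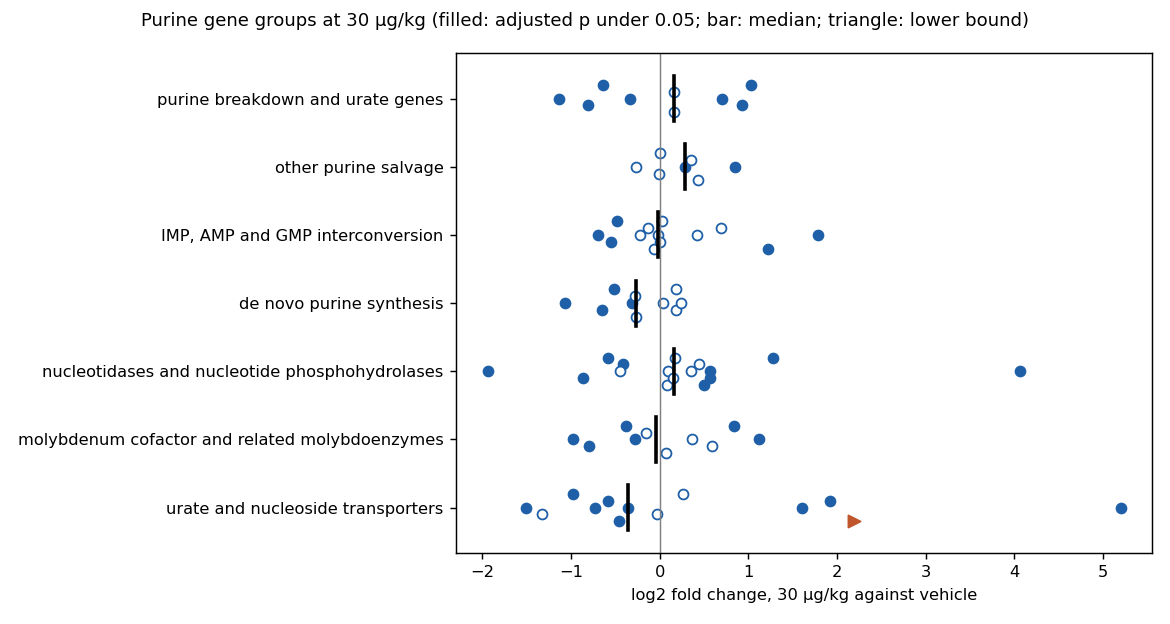
Log2 fold change at 30 µg/kg against vehicle (x axis) of each tested gene of 7 purine gene groups (rows), filled where the adjusted p was under 0.05, with a bar at each group's median and a triangle for *Slc22a12*, drawn at its lower bound of 2.19. *Slc22a6* is left out, so the transporter bar stands at -0.36. *Entpd2* at 4.07 and *Slc28a1* at 5.20 lie farthest to the right.

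Some markers of other liver cells were higher with 30 µg/kg TCDD, and the summed levels did not all follow the order of the doses. At 30 µg/kg, 4 of 9 macrophage and leukocyte markers, 3 of 8 lymphocyte, 2 of 4 tested neutrophil, 4 of 6 endothelial and 4 of 7 stellate and fibroblast markers were higher and none lower, and no cholangiocyte marker of 5 passed. Over all genes, 15.5% were higher and 14.1% lower. The summed level went from 176 to 281 CPM in vehicle livers to 163 to 464 for macrophages and leukocytes, from 2.99 to 4.03 up to 4.12 to 8.36 for lymphocytes, from 0.308 to 1.01 up to 1.78 to 6.64 for neutrophils, from 126 to 164 up to 152 to 236 for endothelium, from 131 to 184 up to 282 to 515 for stellate cells and fibroblasts, and from 52.1 to 77.5 to 53 to 70.2 for cholangiocytes. The neutrophil gene *Ly6g* had no reads in vehicle or 30 µg/kg livers, and *Camp* none in vehicle livers. Of 8 hepatocyte markers, 4 were lower (*Apoa1*, *Cps1*, *Apob*, *Ttr*) and none higher, while their sum ranged from 115616 to 153902 CPM in vehicle livers and from 107357 to 158300 at 30 µg/kg. The part of these cells in the members' changes was not tested. Mouse 4 of the 30 µg/kg group had the lowest stellate and fibroblast sum (282) and neutrophil sum (1.78) of its group. It also had the highest *Adk*, *Uox*, *Gda*, *Urah*, *Xdh* and *Pnp* locus levels of that group. Its *Urad* and *Gmpr* lay within the range of the other mice there, and its *Ada* lay below it.

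The genes most like each member over the 45 livers, by Pearson's r of log2 CPM among 12411 other genes, describe how closely other genes tracked the same doses, libraries and scaling. For *Xdh* they were *Insl6* (r = 0.917), *Them7* (0.915) and *Tmem86b* (0.914). For *Uox* they were *Samm50* (0.890), *Ugp2* (0.867) and *Osbpl1a* (0.865). For *Adk* they included *Il1rap* (0.912) and *Atg3* (0.896).

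*Gda* was most like *Gpr155* (0.886), *Ces1d* (0.884) and *Fgf1* (0.869). *Urad* was most like *Trap1* (0.819), *Eif3l* (0.792) and *Ldhd* (0.788). For *Urah* the closest were *Ndufa2* (0.832), *Ndufa5* (0.805) and *Ndufb11* (0.804), which all encode subunits of respiratory complex I. *Gmpr*, with its few reads, reached 0.648 (*Ckap4*), 0.618 (*Clec14a*) and 0.616 (*Elk3*).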

How the data were processed

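Per the labels, RNA from 45 mouse livers was sequenced on the Illumina platform, and the deposited values are raw read counts per gene, 1 table per mouse. The authors aligned reads to GRCm38 with Bowtie and TopHat 1.4.1 and counted them on Ensembl genes with HTSeq 0.6.1 (versions from the submitters' processing notes), leaving out reads that aligned to several places. Reads outside genes or ambiguous between genes made 10.7% to 18.4% of the reads counted on genes or in these rows. They were left out, as was the separate row of reads that aligned to several places. The pools sequenced together are not given in the sources used here, so no comparison was made within them.

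Groups came from the labels' treatment and dose. Mice within a group were numbered in accession order, and the labels give no pens or litters. Counts were normalized by TMM and tested with edgeR 4.0.16 (R 4.3.3) in 1 quasi-likelihood fit over 45 samples and 9 groups. Genes needed more than 4 reads in any sample (17464 of 39179), and p-values were adjusted by Benjamini-Hochberg within each comparison. Of the counted IDs, 37607 had a symbol in GENCODE M21, a later annotation of the same build, which also gave positions and exon lengths. The study's own posterior probabilities could not be repeated. Dose curves were Hill curves fitted by least squares over a grid to log2 CPM (2 prior reads), with a profile interval (Python 3.11.15, numpy 2.4.6, scipy 1.17.1, pandas 2.3.3), and figures were drawn with matplotlib 3.10.9. Both fits were run on simulated data. The simulated dose curves had a larger span than any fitted here and no slope at a limit. That run therefore does not test the midpoints and intervals of the members. Reads are not counted by molecule, so low counts also carry amplification error.

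The members and gene lists were chosen with earlier results of these data known. Named beside the members were genes of each list that passed at 30 µg/kg with an absolute log2 fold change of at least 1, at most the 4 largest per list, the paralogs *Pnp2* and *Gmpr2*, and the 3 genes of highest r with each member that passed. An item that this rule would name is not reported here. Other genes named by their calls, *Xist*, the Y-linked genes and the primers, and mouse 4 as a liver that stood apart, were picked after values were seen. A fit of the gene lists without mouse 4 was added after seeing the data. Alternatives were DESeq2's size factors, no normalization, other filters on low counts, fits to the groups compared alone, DESeq2 1.42.0 and each mouse left out in turn. Promoter windows are RefSeq's.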

Additional observations from a re-analysis of the deposited data

Results flagged for a closer look

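Among 81 groups of 5 mice, 2 held a mouse far from its group, judged by its gap to the nearest mouse as a share of the group's range. Chance gives about 1 such group in 20. *Urad* at 1 µg/kg was 44.3 CPM in mouse 2 against 52.1 to 54 CPM in the other 4 mice. *Gda* at 3 µg/kg was 63.1 CPM in mouse 1 against 79.5 to 85.5 CPM in the other 4.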

How the results depend on the processing

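No paired analysis was possible because the labels give the groups no shared replicate numbers. The counts of all genes that passed moved by more than 1.5 times at the doses with few calls. At 0.01 µg/kg (0 genes in the reported fit) there were 3 with DESeq2's size factors, 3 without normalization, 3 with edgeR's own filter, 6 in a fit of the compared groups alone and 34 with DESeq2. At 0.03 µg/kg (10 genes) there were 2 without normalization, 2 with every gene with a read tested, 2 in a fit of the compared groups and 73 with DESeq2. At 0.3 µg/kg (81 genes) there were 44 in a fit of the compared groups and 141 with DESeq2, at 3 against 1 µg/kg 20 in place of 31 and at 30 against 10 µg/kg 68 in place of 107 in a fit of the compared groups. The members that passed were 1 (*Xdh*) at 0.3 µg/kg without normalization and with DESeq2, and 4 (*Uox*, *Urad*, *Xdh*, *Adk*) at 1 µg/kg in a fit of the compared groups. The cause of these moves was not tested.

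With each mouse left out in turn, all-gene counts ranged from 0 to 6 at 0.01, 2 to 14 at 0.03, 4 to 6 at 0.1, 40 to 76 at 0.3, 205 to 282 at 1 and 817 to 1238 at 3 µg/kg, and from 10 to 25 at 3 against 1, 94 to 147 at 10 against 3 and 68 to 278 at 30 against 10 µg/kg. Members that passed ranged from 0 to 1 at 0.3, 1 to 2 at 1, 2 to 3 at 3, 4 to 5 at 10 and 6 to 7 at 30 µg/kg, 1 to 2 with at least 2-fold at 30 µg/kg and 0 to 1 at 10 against 3 µg/kg. *Ada* at 30 µg/kg, which did not pass, ranged from -0.004 (log2, without 30 µg/kg mouse 5) to 0.324. Without normalization the median log2 fold change of all genes at 30 µg/kg was 0.232 in place of 0.019, and the share of passing genes that were higher was 80.3% in place of 52.3%, 77.6% in place of 53.2% at 10 µg/kg and 80.3% in place of 57.6% at 3 µg/kg. Relative to that median no member that passed changed direction, *Urah* (-0.127) lost its call, *Gda* did not pass at 10 µg/kg while *Gmpr* did, and *Xdh* and *Gmpr* were the members past 2-fold.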
